A study of Homo sapiens with 9 samples.

Results

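Bone morphogenetic proteins (BMPs) are secreted ligands that bind pairs of type I and type II receptor kinases, which phosphorylate SMAD1, SMAD5 and SMAD9. With SMAD4 these SMADs enter the nucleus and raise the transcription of targets such as the ID genes. Secreted antagonists hold BMPs away from their receptors, and the inhibitory SMADs, themselves targets, act back on the pathway. The members here were 9 genes of this pathway out of 51796 genes in the count table. They were the secreted antagonists GREM1 and CHRDL2, the ligands BMP2 and BMP4, the target genes ID1, ID2 and ID3, and the inhibitory SMADs SMAD6 and SMAD7. GREM1 and CHRDL2 were chosen by their change under MS023, so their values under MS023 are described without a test. All 9 were matched by symbol, and 9 of 9 passed the filter on low counts.

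The cells were A549, an established human lung adenocarcinoma line of epithelial origin, so every group is a sample of a single cancer line. The groups were MS023 at 1 µM, GSK591 at 1 µM, and DMSO, the solvent, each with 3 libraries and each treated for 7 days. MS023 inhibits type I protein arginine methyltransferases (PRMTs), which place asymmetric dimethylarginine, and GSK591 inhibits PRMT5, which places symmetric dimethylarginine. Treated plates were seeded with 0.4 and control plates with 0.2 times 1e5 cells, so the seeded number and the inhibitor cannot be told apart in comparisons with DMSO. The labels do not say that the 3 libraries of a group came from separate cultures, so p-values reflect variation among these libraries, which may be technical.

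The libraries held between 31398075 and 51244525 counts. Levels are CPM, counts relative to the library size after scaling, given as mean ± SD over the 3 libraries of a group, and changes are fitted log2 values ± standard error. A gene was called at an adjusted p under 0.05 in edgeR's quasi-likelihood test with Benjamini-Hochberg adjustment over 18292 genes. The 6 epithelial markers EPCAM, CDH1, KRT8, KRT18, KRT19 and KRT7 summed to 5133 to 5331 CPM in MS023 libraries, 7687 to 7952 in GSK591 libraries and 6402 to 6528 in DMSO libraries. The sum was led by KRT8, and CDH1, KRT8 and KRT18 had the same order of groups. EPCAM had the reverse order, at 19.7 to 22.5 CPM in MS023, 6.21 to 6.67 in GSK591 and 12.4 to 15.3 in DMSO libraries. KRT7 overlapped DMSO in GSK591, and KRT19 overlapped DMSO in MS023. PTPRC of leukocytes was at up to 0.0436 CPM, and DCN and COL1A2 of fibroblasts at up to 0.0313 and 0.0432 CPM. Other markers on those lists were present: the 7 fibroblast markers, led by COL1A1 in MS023 and DMSO and by THY1 in GSK591, summed to 29 to 32.2 CPM in MS023 libraries, 23.8 to 25.0 CPM in GSK591 libraries and 16.9 to 18.5 CPM in DMSO libraries. The 7 leukocyte markers, led by CD68, summed to 21.0 to 22.2 CPM in MS023 libraries, 34.0 to 35.1 CPM in GSK591 libraries and 26.0 to 27.5 CPM in DMSO libraries, and 4 endothelial markers to 0.442 to 0.682 CPM in MS023 libraries, 0.342 to 0.447 CPM in GSK591 libraries and 0.108 to 0.281 CPM in DMSO libraries. The part of these markers in the results was not tested. Of the alveolar type II markers, SFTPC was at up to 0.217 CPM. ABCA3, which led their sum, was at 23.8 to 27.2 CPM in MS023, 61.4 to 66.6 in GSK591 and 47.8 to 50.3 in DMSO libraries. NAPSA lay above DMSO in both treated groups, at 0.911 to 1.09 CPM in MS023, 1.88 to 2.09 in GSK591 and 0.390 to 0.657 in DMSO libraries. Mitochondrial rRNA stood at 927.5 CPM of the unscaled total in GSK591 replicate 3, against 0.401 to 20.1 CPM in the other libraries. Leaving that library out changed no call of a member against DMSO, and ended the call of BMP4 between the inhibitors. As in any bulk sample, fewer cells that express a gene and less of its RNA per cell cannot be told apart.

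Both inhibitors moved most of the members, but not all in the same direction. Under GSK591, 4 of 9 members were called higher than in DMSO (GREM1, BMP4, SMAD6 and SMAD7), beside 30.1% of all genes tested. In that comparison 3 of 9 were called lower (CHRDL2, ID1 and ID2), beside 32.4% of all genes. These counts include GREM1 and CHRDL2, which were chosen by a contrast with the same DMSO libraries. Under MS023, of the 7 members that it had not chosen, 3 were called higher than in DMSO (BMP2, BMP4 and SMAD6), beside 25.1% of all genes, and 4 lower (ID1, ID2, ID3 and SMAD7), beside 25.9%. Between the inhibitors, 2 of these 7 were called higher in MS023 than in GSK591 (BMP2 and BMP4), beside 33.6% of all genes, and 4 lower (ID2, ID3, SMAD6 and SMAD7), beside 31.7%. Calls were thus common over all genes in each comparison, and a call by itself sets no member apart. The comparisons of MS023 and GSK591 with DMSO share the DMSO libraries.

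**Figure D1:**
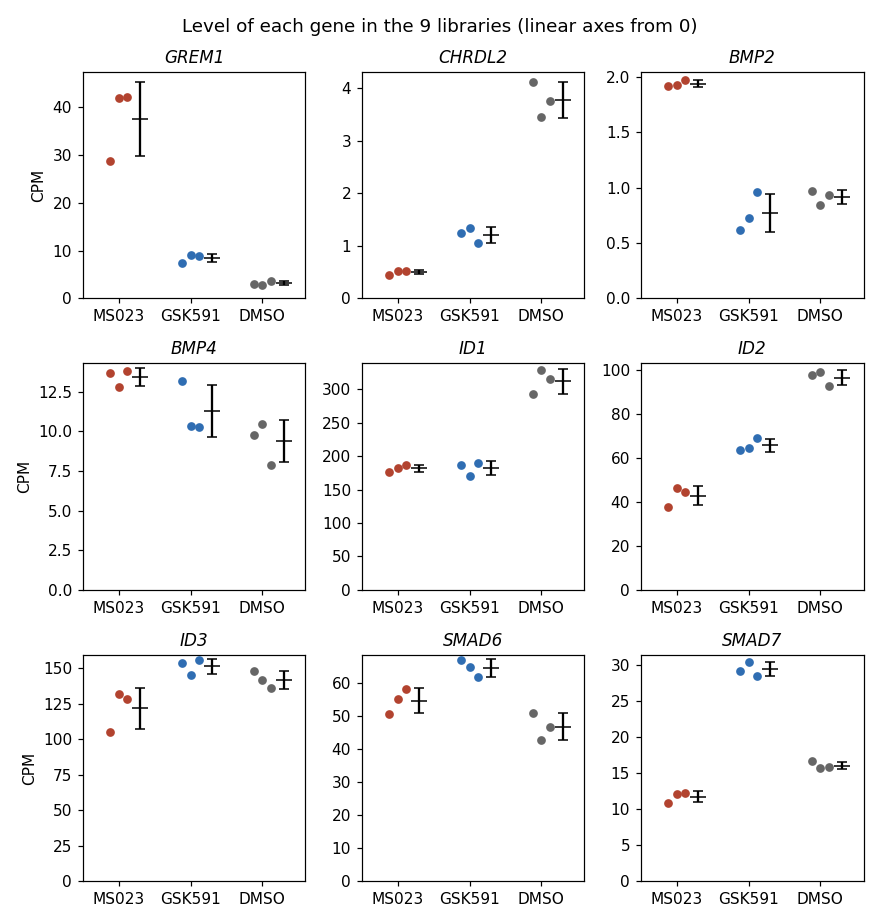
CPM of the 9 genes in each library (points), with the group mean and SD (black), for MS023, GSK591 and DMSO on linear axes. GREM1 stood at 28.6 to 42.1 CPM in MS023 libraries and 2.86 to 3.61 CPM in DMSO libraries, ID1 lay lower in all 6 treated libraries than in the DMSO libraries, and SMAD7 lay above DMSO in GSK591 and below it in MS023.

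GREM1 (Gremlin 1, ENSG00000166923, chr15:33010175-33026870, hg19, plus strand) encodes a secreted protein of the DAN family that binds BMP2, BMP4 and BMP7. It had 28.6, 41.8 and 42.1 CPM in MS023 libraries, 7.39, 9.03 and 8.87 CPM in GSK591 libraries, and 3.03, 2.86 and 3.61 CPM in DMSO libraries. The groups did not overlap, and MS023 replicate 1 was the lowest library of its group. The means were 37.5 ± 7.67 CPM in MS023, 8.43 ± 0.904 CPM in GSK591 and 3.17 ± 0.392 CPM in DMSO (SD, n = 3 each). These rest on 4864 counts in MS023, 1029 in GSK591 and 396 in DMSO. GREM1 was 11.8-fold higher in MS023 than in DMSO, the difference by which it was chosen, a log2 difference of 3.56. GREM1 rose under GSK591 too, by a log2 change of 1.42 ± 0.16 or 2.67-fold, with an adjusted p of 2.9e-06 in edgeR, higher in 3 of 3 libraries. That test uses the same DMSO libraries as the contrast that chose the gene. Between the inhibitors GREM1 was 4.41-fold higher in MS023 than in GSK591, as a description. The lincRNA gene RP11-758N13.1 (33009471-33011208) overlaps the start of GREM1 on the other strand and is not in the count table. Without a known strand setting, its reads within GREM1 may be counted for GREM1.

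CHRDL2 (chordin-like 2, ENSG00000054938, chr11:74407474-74442430, hg19, minus strand) encodes a secreted protein with the cysteine-rich repeats of chordin, which bind BMPs. It had 0.449, 0.520 and 0.517 CPM in MS023 libraries, 1.24, 1.34 and 1.05 CPM in GSK591 libraries, and 4.13, 3.45 and 3.76 CPM in DMSO libraries. The order was the reverse of that of GREM1, again without overlap between groups. The MS023 libraries held 65 counts of CHRDL2 in all, the GSK591 libraries 145 and the DMSO libraries 465. CHRDL2 was 7.6-fold lower in MS023 than in DMSO, the difference by which it was chosen. Under GSK591 it fell by 1.64 ± 0.15 on the log2 scale, 3.12-fold lower, with an adjusted p of 1.8e-07 in edgeR, lower in 3 of 3 libraries. This test too uses the DMSO libraries of the contrast that chose the gene. Between the inhibitors the fitted log2 difference, MS023 over GSK591, was -1.29. The authors' FPKM (fragments scaled to length and depth) did not separate the inhibitors for this gene. CHRDL2 had 0.837, 0.451 and 0.220 FPKM in MS023 libraries, 0.529, 0.583 and 0.815 FPKM in GSK591 libraries, and 1.885, 1.81 and 1.76 FPKM in DMSO libraries. On log2(FPKM + 0.1) the difference of CHRDL2 was -1.81 for MS023 over DMSO and -0.42 for MS023 over GSK591, smaller in size than in counts.

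BMP2 (ENSG00000125845, chr20:6748311-6760927, hg19, plus strand) and BMP4 (ENSG00000125378, chr14:54416454-54425479, hg19, minus strand) are closely related ligands that GREM1 binds. BMP2 had 1.91, 1.93 and 1.97 CPM in MS023 libraries, 0.621, 0.729 and 0.959 CPM in GSK591 libraries, and 0.969, 0.845 and 0.929 CPM in DMSO libraries. The MS023 libraries lay above all others, and the GSK591 and DMSO libraries overlapped. BMP2 rose under MS023 by a log2 change of 1.09 ± 0.18, or 2.12-fold, with an adjusted p of 0.000122 in edgeR. Under GSK591 its log2 change was -0.22 ± 0.20 with a 95% interval of -0.65 to 0.22 and an adjusted p of 0.372. BMP2 was higher in MS023 than in GSK591 by 1.30 ± 0.18 on the log2 scale, with an adjusted p of 1.5e-05. It was a rare transcript, with 256 counts in the MS023 libraries together, 95 in the GSK591 libraries and 113 in the DMSO libraries.

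BMP4 had 13.7, 12.8 and 13.8 CPM in MS023 libraries, 13.2, 10.3 and 10.3 CPM in GSK591 libraries, and 9.79, 10.4 and 7.89 CPM in DMSO libraries. The MS023 libraries lay above the DMSO libraries, while the GSK591 libraries overlapped both other groups. BMP4 rose under MS023 by a log2 change of 0.52 ± 0.10, with an adjusted p of 0.000774 in edgeR (0.116 in limma on log2(FPKM + 1) without a filter). The smaller rise under GSK591, a log2 change of 0.26 ± 0.11, passed the threshold narrowly at an adjusted p of 0.0481. That call was lost without GSK591 replicate 1 (log2 change 0.16, adjusted p 0.199), without DMSO replicate 3 (0.14, adjusted p 0.263), and at an adjusted p of 0.0546 without MS023 replicate 1 and 0.0511 without MS023 replicate 3. Its adjusted p was 0.0625 in DESeq2, 0.0515 over only the 6 libraries compared, and ranged from 0.00425 to 0.328 over 20 alternatives, 9 of which lost the call. The direct difference for BMP4, a log2 value of 0.26 ± 0.10 for MS023 over GSK591, had an adjusted p of 0.0369 in edgeR and was lost in 10 of 20 alternatives. These included leaving out GSK591 replicate 2 (adjusted p 0.158), GSK591 replicate 3 (0.161), MS023 replicate 1 (0.0718) or MS023 replicate 3 (0.0971).

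**Figure D2:**
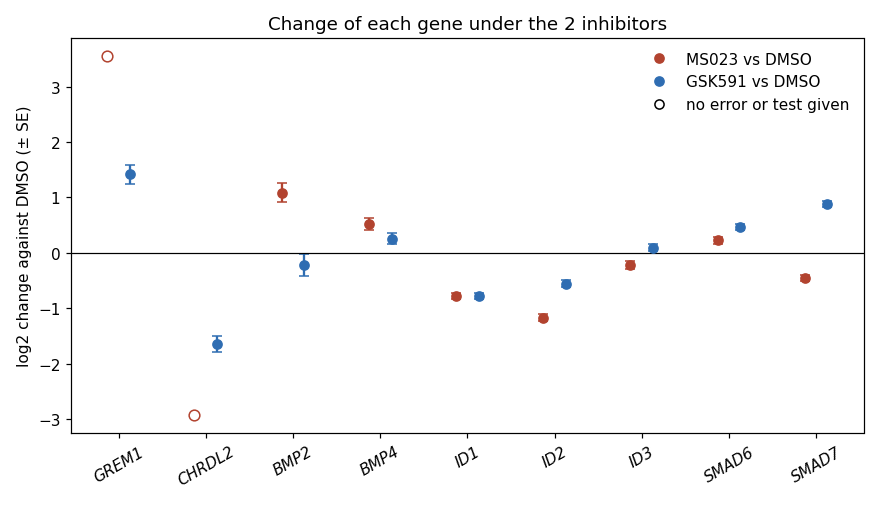
Fitted log2 change of each gene in MS023 and in GSK591 against DMSO, with standard errors from 3 libraries per group. Open points have no error because MS023 chose GREM1 and CHRDL2. ID1 lies at -0.78 under both inhibitors, while SMAD7 lies at -0.45 under MS023 and 0.87 under GSK591.

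ID1, ID2 and ID3 encode helix-loop-helix proteins without a DNA-binding basic region, which bind E proteins and keep them from DNA. ID1 (ENSG00000125968, chr20:30193086-30194318, hg19, plus strand) had 176.6, 181.9 and 186.5 CPM in MS023 libraries, 186.5, 171 and 189.3 CPM in GSK591 libraries, and 292.2, 329 and 315.2 CPM in DMSO libraries. Both treated groups overlapped each other and lay below every DMSO library. ID1 fell by 0.78 ± 0.05 on the log2 scale under MS023, with an adjusted p of 1.1e-08 in edgeR. Under GSK591 it fell by 0.78 ± 0.05 as well, with an adjusted p of 5.6e-09. The difference for ID1, MS023 over GSK591, was -0.005 ± 0.05 on the log2 scale with a 95% interval of -0.11 to 0.10 and an adjusted p of 0.943. 

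ID2 (ENSG00000115738, chr2:8818975-8824583, hg19, plus strand) had 37.9, 46.3 and 44.4 CPM in MS023 libraries, 63.7, 64.7 and 69.0 CPM in GSK591 libraries, and 97.7, 99.3 and 92.6 CPM in DMSO libraries. The groups did not overlap, with MS023 lowest and GSK591 between. ID2 fell by 1.17 ± 0.06 on the log2 scale under MS023, with an adjusted p of 1.3e-09 in edgeR, and by 0.55 ± 0.06 under GSK591, with an adjusted p of 1.6e-06. It was lower in MS023 than in GSK591, at a log2 difference of -0.62 ± 0.06 and an adjusted p of 4.6e-07. ID2 overlaps the antisense gene AC011747.7, which had 66 to 191 counts per library against 1780 to 4579 for ID2. The strand setting of the counting is not given in the sources used here, so their reads may be shared.

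ID3 (ENSG00000117318, chr1:23884409-23886285, hg19, minus strand) did not follow ID1 and ID2 under GSK591. It had 105, 131.8 and 128.1 CPM in MS023 libraries, 153.2, 144.9 and 155.3 CPM in GSK591 libraries, and 147.9, 141.7 and 135.6 CPM in DMSO libraries. The MS023 libraries lay below all others, MS023 replicate 1 lowest, and the GSK591 libraries overlapped the DMSO libraries. The log2 change of ID3 under GSK591 was 0.09 ± 0.07 with a 95% interval of -0.05 to 0.24 and an adjusted p of 0.247 in edgeR. Under MS023 ID3 fell by 0.22 ± 0.07 on the log2 scale, with an adjusted p of 0.0132. Without DMSO replicate 1 that adjusted p was 0.0600, on log2(FPKM + 1) without a filter it was 0.0816, and without MS023 replicate 1 the fall was 0.13 on the log2 scale with an adjusted p of 0.0393. ID3 was lower in MS023 than in GSK591 at a log2 difference of -0.31 ± 0.07, with an adjusted p of 0.000844.

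SMAD6 (ENSG00000137834, chr15:66994566-67074338, hg19, plus strand) and SMAD7 (ENSG00000101665, chr18:46446223-46477081, hg19, minus strand) encode inhibitory SMADs. SMAD6 acts mainly on BMP receptors and SMAD1, and SMAD7 also on the TGF-beta receptors. PRMT1, a type I enzyme, has been reported to methylate SMAD6 upon BMP stimulation. SMAD6 had 50.6, 55.1 and 58.0 CPM in MS023 libraries, 67.0, 64.9 and 61.7 CPM in GSK591 libraries, and 50.9, 42.7 and 46.6 CPM in DMSO libraries. The GSK591 libraries lay above all others, and a single DMSO library reached into the range of MS023. SMAD6 rose under GSK591 by a log2 change of 0.47 ± 0.06, with an adjusted p of 1.1e-05 in edgeR, and under MS023 by 0.23 ± 0.06, with an adjusted p of 0.00705. On log2(FPKM + 1) without a filter the change of SMAD6 under MS023 was 0.14, with an adjusted p of 0.0759 in limma. It was lower in MS023 than in GSK591 by a log2 difference of -0.24 ± 0.06, with an adjusted p of 0.00307.

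SMAD7 moved in opposite directions under the inhibitors. It had 10.9, 12.1 and 12.2 CPM in MS023 libraries, 29.2, 30.4 and 28.5 CPM in GSK591 libraries, and 16.6, 15.7 and 15.8 CPM in DMSO libraries. No groups overlapped, with GSK591 highest and MS023 lowest. SMAD7 fell by 0.45 ± 0.06 on the log2 scale under MS023, with an adjusted p of 1.5e-05 in edgeR. It rose by 0.87 ± 0.06 under GSK591, or 1.83-fold, with an adjusted p of 4.4e-09. The direct difference was -1.33 ± 0.06 for MS023 over GSK591, with an adjusted p of 3.7e-11.

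**Figure D3:**
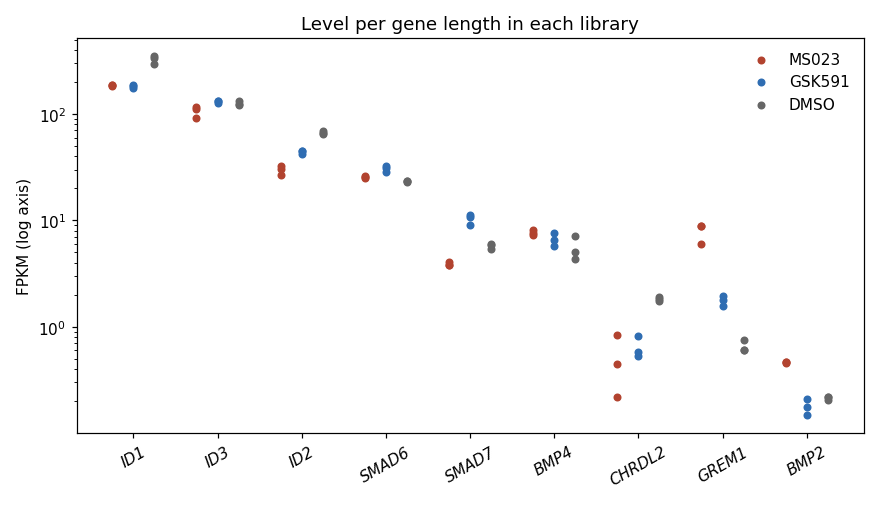
FPKM of the 9 genes in each library on a log axis, ordered by their mean in DMSO, for MS023, GSK591 and DMSO. ID1 had the highest mean in every group and BMP2 the lowest, and GREM1 lay at 7.89 FPKM in MS023 and 0.655 FPKM in DMSO.

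Levels per length can be compared between genes, and the authors' FPKM give their order. In DMSO the means were 327 ± 28.97 FPKM for ID1, 126 ± 5.94 for ID3, 66.8 ± 2.27 for ID2 and 23.2 ± 0.206 for SMAD6 (SD, n = 3 each). SMAD7 at 5.75 ± 0.307 FPKM and BMP4 at 5.51 ± 1.46 FPKM followed, and their libraries overlapped, so their order was not resolved. CHRDL2 stood at 1.82 ± 0.0625 FPKM, GREM1 at 0.655 ± 0.0858 and BMP2 at 0.215 ± 0.00844 in DMSO. In MS023 the upper 4 kept their order, with ID1 at 186 ± 2.08, ID3 at 106 ± 12.2, ID2 at 29.8 ± 2.67 and SMAD6 at 25.6 ± 0.476 FPKM. GREM1 then stood at 7.89 ± 1.63 FPKM, overlapping BMP4 at 7.64 ± 0.381 FPKM, above SMAD7 at 3.91 ± 0.157 FPKM. CHRDL2 at 0.502 ± 0.312 and BMP2 at 0.465 ± 0.00470 FPKM overlapped at the bottom in MS023. In GSK591 no neighbours overlapped, and the order was ID1 at 182 ± 6.39 FPKM, ID3, ID2, SMAD6, SMAD7 at 10.4 ± 1.18, BMP4, GREM1 at 1.77 ± 0.200, CHRDL2 and BMP2 at 0.178 ± 0.0306 FPKM.

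Promoters of 5 members are shown because the 3 ID genes, targets of the same pathway, differed under the inhibitors, and SMAD6 and GREM1 for the motif matches they hold. RefSeq tables on GRCh38.p14 gave windows for 7 of 9 members, and CHRDL2 and BMP2 had no entry. Below are the 250 bases before the start, 5′ to 3′ on the gene's strand, for ID1, ID2 and ID3 (the targets), SMAD6, and the upstream start of GREM1. Capitals mark matches, on either strand, to GTCTAGAC (a palindromic SMAD-binding element), GGCGCC (a GC-rich SMAD1 and SMAD5 motif, also its own reverse) and CCAAT (the CCAAT box, or ATTGG on the other strand).
ID1 (chr20:31605039-31605288, plus strand): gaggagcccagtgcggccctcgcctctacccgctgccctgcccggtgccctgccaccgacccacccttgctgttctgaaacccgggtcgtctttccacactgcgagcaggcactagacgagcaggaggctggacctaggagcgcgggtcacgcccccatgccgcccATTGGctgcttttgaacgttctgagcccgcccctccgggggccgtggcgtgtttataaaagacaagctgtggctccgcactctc
ID2 (chr2:8681806-8682055, plus strand): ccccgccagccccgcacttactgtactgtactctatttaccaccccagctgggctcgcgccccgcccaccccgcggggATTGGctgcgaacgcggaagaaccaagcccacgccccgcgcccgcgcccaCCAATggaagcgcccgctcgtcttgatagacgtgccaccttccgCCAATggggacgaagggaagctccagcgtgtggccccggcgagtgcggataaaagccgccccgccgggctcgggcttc
ID3 (chr1:23559502-23559751, minus strand): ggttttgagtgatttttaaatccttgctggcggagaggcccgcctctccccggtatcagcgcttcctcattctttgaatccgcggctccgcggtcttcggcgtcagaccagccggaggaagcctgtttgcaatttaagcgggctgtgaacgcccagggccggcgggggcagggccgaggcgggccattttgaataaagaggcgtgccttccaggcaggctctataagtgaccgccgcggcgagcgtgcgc
SMAD6 (chr15:66701986-66702235, plus strand): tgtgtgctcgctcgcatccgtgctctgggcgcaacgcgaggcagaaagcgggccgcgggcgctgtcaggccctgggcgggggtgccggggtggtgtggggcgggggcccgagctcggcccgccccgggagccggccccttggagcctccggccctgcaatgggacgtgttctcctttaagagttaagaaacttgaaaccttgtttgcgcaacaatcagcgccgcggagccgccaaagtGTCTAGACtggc
GREM1 (chr15:32717754-32718003, plus strand): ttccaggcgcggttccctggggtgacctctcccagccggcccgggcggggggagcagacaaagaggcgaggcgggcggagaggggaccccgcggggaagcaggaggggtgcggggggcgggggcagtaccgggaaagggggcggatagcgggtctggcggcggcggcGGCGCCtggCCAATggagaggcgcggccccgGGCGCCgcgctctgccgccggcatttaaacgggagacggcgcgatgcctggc
The motif GTCTAGAC stood once, in SMAD6, with its first base at position -12 (the base before the start is -1), and 0.182% of 35116 windows of this length held it. GGCGCC stood 2 times before the upstream start of GREM1, from positions -83 and -52, and not before its other start. It also stood once before a start of BMP4, whose window is not printed, from position -232, and in 16.4% of all windows. CCAAT stood 3 times in ID2, once each in ID1 and in GREM1 and not in ID3 or SMAD6, and 32% of all windows held it. Neither SMAD motif stood in these windows of the ID genes, which says only that these letters are not in 250 bases.

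The other genes of the pathway came from a list of 59, of which 58 were in the count table and 48 were tested. Under MS023, 16 of these 48 were called higher than in DMSO and 12 lower, beside 25.1% higher and 25.9% lower of all genes, with a median log2 change of 0.08, against a median of -0.003 over all genes. Under GSK591, 13 were called higher and 21 lower, beside 30.1% higher and 32.4% lower of all genes, with a median of -0.01 against 0.006 over all genes. Between the inhibitors, 24 were called higher and 13 lower in MS023 than in GSK591, beside 33.6% higher and 31.7% lower of all genes, with a median of 0.22 against 0.002 over all genes. These shares are the background for the counts of each role that follow.

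Of the other ligands, 4 of 7 tested were called higher and 1 lower under MS023 (25.1% and 25.9% of all genes), and 2 higher and 2 lower under GSK591 (30.1% and 32.4%). BMP6, a ligand known for its control of hepcidin in liver, averaged 78.3 ± 1.64 CPM in MS023, 9.46 ± 0.444 CPM in GSK591 and 43.5 ± 3.03 CPM in DMSO. BMP6 rose under MS023 (log2 change 0.85 ± 0.05, adjusted p 3.2e-09 in edgeR) and fell by 2.20 ± 0.06 on the log2 scale under GSK591 (adjusted p 9.0e-13). BMP7, another ligand bound by Gremlin 1, rose under both, at 6.44 ± 0.774 CPM in MS023 and 5.11 ± 0.308 CPM in GSK591, against 1.11 ± 0.0329 CPM in DMSO. Its log2 change was 2.53 ± 0.13 under MS023 (adjusted p 8.1e-10) and 2.20 ± 0.13 under GSK591 (adjusted p 2.5e-09). GDF6 and BMP5 rested on few counts, 64 of GDF6 in GSK591 against 15 in DMSO, and 8 of BMP5 in MS023 against 47 in DMSO. GDF6 rose under GSK591 (log2 change 2.13 ± 0.62, adjusted p 0.00798), and without GSK591 replicate 3 and DMSO replicate 1 its adjusted p was 0.0710, while without DMSO replicate 3 its log2 change was 3.31. Under MS023 its log2 change was 1.63 ± 0.65 on 49 counts, just short of a call (adjusted p 0.0509). The inhibitors did not differ for GDF6 past the threshold (-0.505 ± 0.494 for MS023 over GSK591, adjusted p 0.385). BMP5 fell by 2.57 ± 0.52 on the log2 scale under MS023 (adjusted p 0.000758), and by 1.04 ± 0.42 under GSK591 (adjusted p 0.0440), a call lost in 9 of 17 alternatives, with adjusted p from 0.0318 to 0.211. These include leaving out GSK591 replicate 1 (0.139) or 2 (0.121), MS023 replicate 3 (0.0599), and DMSO replicate 2 (0.211) or 3 (0.0538).

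**Figure D4:**
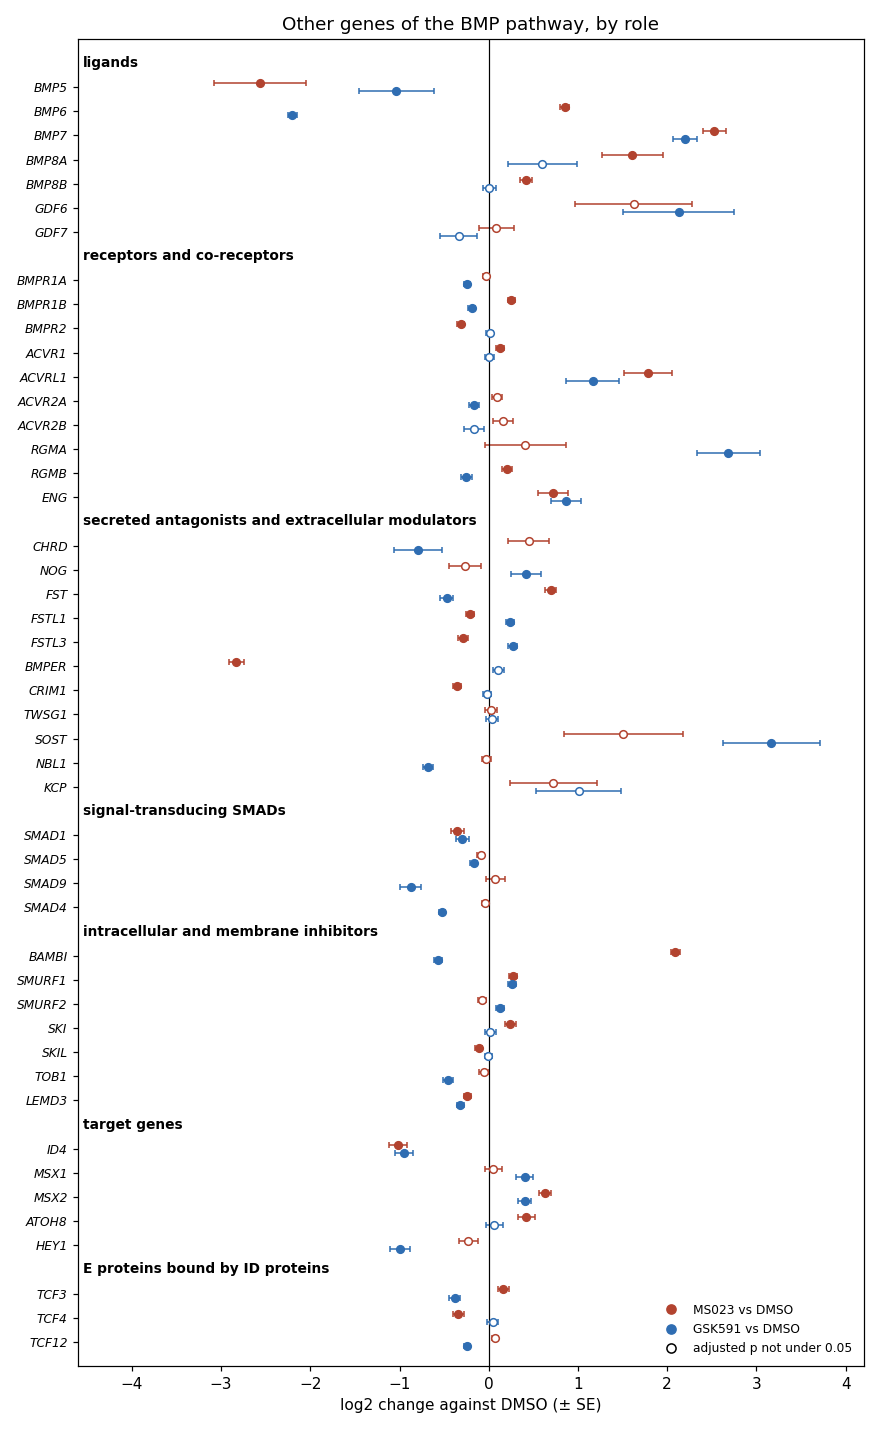
Fitted log2 changes with standard errors of other pathway genes that were tested, by role, for MS023 and GSK591 against DMSO. Open points did not pass an adjusted p of 0.05. BMP6 (0.85 under MS023, -2.20 under GSK591) and BAMBI (2.09 and -0.57) lie on opposite sides of 0 for the inhibitors, and all 4 signal-transducing SMADs lie below 0 for GSK591.

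Among the other secreted antagonists and modulators, 1 of 12 was called higher and 5 lower under MS023 (25.1% and 25.9% of all genes), and 4 higher and 4 lower under GSK591 (30.1% and 32.4%). BMPER, a secreted protein with chordin-like repeats that binds BMPs, had 1.79 ± 0.156 CPM in MS023, 13.8 ± 0.295 CPM in GSK591 and 12.8 ± 0.533 CPM in DMSO. It fell by 2.83 ± 0.08 on the log2 scale under MS023 (adjusted p 1.8e-12 in edgeR), while its log2 change under GSK591 was 0.11 ± 0.06 (adjusted p 0.149). The direct difference for BMPER was -2.94 ± 0.08 for MS023 over GSK591 (adjusted p 3.1e-13). FST (follistatin), which binds activins and some BMPs, rose under MS023 (log2 change 0.69 ± 0.07, adjusted p 5.7e-07) and fell by 0.47 ± 0.07 under GSK591 (adjusted p 3.0e-05). CRIM1, a membrane protein with cysteine-rich repeats, fell by 0.36 ± 0.04 under MS023 (adjusted p 7.2e-06), with a log2 change of -0.02 ± 0.04 under GSK591 (adjusted p 0.713). NBL1, like GREM1 of the DAN family, fell by 0.68 ± 0.06 under GSK591 (adjusted p 6.6e-08), with a log2 change of -0.03 ± 0.05 under MS023 (adjusted p 0.700). FSTL1 rose under GSK591 (0.24 ± 0.04, adjusted p 0.000170) and fell by 0.21 ± 0.04 under MS023 (adjusted p 0.000797), a fall whose adjusted p was 0.0525 to 0.0573 in the 3 FPKM settings. SOST rose under GSK591 on 64 counts against 7 in DMSO (log2 change 3.16 ± 0.54, adjusted p 0.000136). That log2 change of SOST was 4.202 without DMSO replicate 3 and 2.54 without DMSO replicate 2. Under MS023 SOST had a log2 change of 1.51 ± 0.67 on 22 counts (adjusted p 0.0743). It was lower in MS023 than in GSK591 by a log2 difference of -1.65 ± 0.43 (adjusted p 0.00354).

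Apart from ACVRL1, the log2 changes of the type I and type II receptors against DMSO lay between -0.31 and 0.25. Of the 10 receptors and co-receptors tested, 5 were called higher and 1 lower under MS023 (25.1% and 25.9% of all genes), and 3 higher and 4 lower under GSK591 (30.1% and 32.4%). ACVRL1, a type I receptor best known from endothelium, stood at 1.33 ± 0.208 CPM in MS023 and 0.872 ± 0.162 CPM in GSK591, against 0.365 ± 0.156 CPM in DMSO. It rose by a log2 change of 1.79 ± 0.27 under MS023 (adjusted p 6.8e-05 in edgeR) and 1.16 ± 0.29 under GSK591 (adjusted p 0.00293), a call lost on log2(FPKM + 1) without a filter (0.19, adjusted p 0.241). BMPR1A, a type I receptor, fell by 0.24 ± 0.03 under GSK591 (adjusted p 1.1e-05), and its log2 change under MS023 was -0.04 ± 0.03 (adjusted p 0.387). On log2(FPKM + 1) the change of BMPR1A in GSK591 was -0.09 (adjusted p 0.407), and the call was lost in all 3 FPKM settings. BMPR1B rose under MS023 (0.25 ± 0.04, adjusted p 0.000162) and fell by 0.19 ± 0.04 under GSK591 (adjusted p 0.00117). BMPR2, the type II receptor specific to BMPs, fell by 0.31 ± 0.04 under MS023 (adjusted p 1.7e-05), with a log2 change of 0.01 ± 0.04 under GSK591 (adjusted p 0.813). ACVR1 had log2 changes of 0.13 ± 0.05 under MS023 (adjusted p 0.0397) and 0.01 ± 0.05 under GSK591 (adjusted p 0.894). The call of ACVR1 was lost in 9 of 20 alternatives, among them those without MS023 replicate 2 (0.113) or 3 (0.101), without DMSO replicate 2 (0.101) or 3 (0.0549), and with a replicate block (0.0529). ACVR2A had 0.09 ± 0.06 under MS023 (adjusted p 0.177) and -0.17 ± 0.06 under GSK591 (adjusted p 0.0162). That call of ACVR2A was lost in 6 of 20 alternatives, among them those without GSK591 replicate 2 (0.0862) or DMSO replicate 1 (0.0934). ACVR2B passed in neither, at 0.16 ± 0.11 under MS023 (adjusted p 0.263) and -0.16 ± 0.12 under GSK591 (adjusted p 0.234). In limma with the filter its fall under GSK591 did pass, on log2(FPKM + 1) (-0.19, adjusted p 0.0361) and log2(FPKM + 0.1) (-0.28, adjusted p 0.0371). The co-receptors RGMA (2.69 ± 0.35, adjusted p 9.9e-06) and ENG (0.86 ± 0.17, adjusted p 0.000411) rose under GSK591, on 172 counts of RGMA against 27 in DMSO and 224 counts of ENG against 128 in DMSO. Under MS023 ENG rose too (0.72 ± 0.17, adjusted p 0.00251), on 223 counts, and RGMA had 0.41 ± 0.45 (adjusted p 0.472). The log2 difference of ENG, MS023 over GSK591, was -0.146 ± 0.155 (adjusted p 0.421). On log2(FPKM + 1) without a filter ENG changed by 0.19 in GSK591 (adjusted p 0.203) and by 0.28 in MS023 (adjusted p 0.0933). The 4 endothelial markers CDH5, VWF, KDR and TEK summed to 0.442 to 0.682 CPM in MS023 libraries and 0.342 to 0.447 CPM in GSK591 libraries, against 0.108 to 0.281 CPM in DMSO libraries. PECAM1, also listed, was not found by symbol. The sums did not overlap with DMSO, but of the single markers only CDH5 lay above DMSO in both treated groups. VWF and TEK overlapped DMSO in both. KDR, at 0.0216 to 0.0313 CPM in DMSO libraries, was at 0.0520 to 0.137 CPM in MS023 libraries and 0 in GSK591 libraries. The part of these markers in the changes of ACVRL1 and ENG was not tested.

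Of the signal-transducing SMADs, 1 of 4 was called lower under MS023, beside 25.9% of all genes, and all 4 under GSK591, beside 32.4%. SMAD4, the common partner, averaged 92.8 ± 2.29 CPM in MS023, 66.5 ± 1.86 CPM in GSK591 and 95.6 ± 0.343 CPM in DMSO, and fell by 0.52 ± 0.03 on the log2 scale under GSK591 (adjusted p 5.0e-09 in edgeR). Its log2 change under MS023 was -0.04 ± 0.03 (adjusted p 0.291). SMAD9 fell by 0.88 ± 0.12 under GSK591 (adjusted p 1.1e-05), with 0.07 ± 0.11 under MS023 (adjusted p 0.597). SMAD1 fell by 0.35 ± 0.07 under MS023 (adjusted p 0.000820) and by 0.30 ± 0.07 under GSK591 (adjusted p 0.00235). On log2(FPKM + 1) the change of SMAD1 was -0.06 in MS023 (adjusted p 0.752 in limma) and -0.28 in GSK591 (adjusted p 0.107). SMAD5 fell by 0.17 ± 0.04 under GSK591 (adjusted p 0.00148), with -0.09 ± 0.04 under MS023 (adjusted p 0.0636). On log2(FPKM + 1) the change of SMAD5 in GSK591 was -0.07 (adjusted p 0.289), so the calls of SMAD1 and SMAD5 were lost there.

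Of the other inhibitors inside the cell or in its membrane, 3 of 7 were called higher and 2 lower under MS023 (25.1% and 25.9% of all genes), and 2 higher and 3 lower under GSK591 (30.1% and 32.4%). BAMBI, a pseudoreceptor that resembles a type I receptor without a kinase and is itself a target of BMP and TGF-beta signals, averaged 439.5 ± 16.1 CPM in MS023, 69.5 ± 3.17 CPM in GSK591 and 103.1 ± 4.06 CPM in DMSO. BAMBI rose under MS023 by a log2 change of 2.09 ± 0.05, or 4.26-fold (adjusted p 2.0e-13 in edgeR), and fell by 0.57 ± 0.05 under GSK591 (adjusted p 4.8e-08). The direct difference for BAMBI was 2.66 ± 0.05 for MS023 over GSK591 (adjusted p 7.1e-15). Its signs were thus opposite to those of the other inhibitor SMAD7. SMURF1, a ubiquitin ligase that acts on SMAD1 and SMAD5, rose under MS023 (0.27 ± 0.04, adjusted p 9.8e-05) and under GSK591 (0.26 ± 0.04, adjusted p 8.7e-05), its call under GSK591 being lost in all 3 FPKM settings, with adjusted p from 0.0603 to 0.0981. TOB1 fell by 0.46 ± 0.05 under GSK591 (adjusted p 2.7e-06), with -0.05 ± 0.05 under MS023 (adjusted p 0.422). LEMD3, a nuclear membrane protein that binds SMADs, fell by 0.24 ± 0.04 under MS023 (adjusted p 0.000125) and by 0.32 ± 0.04 under GSK591 (adjusted p 4.7e-06). Its call under MS023 was lost in all 3 FPKM settings, with adjusted p from 0.163 to 0.328. SMURF2 rose by 0.13 ± 0.04 under GSK591 (adjusted p 0.0222), a call lost in 6 of 20 alternatives, among them those without GSK591 replicate 3 (0.0707) or DMSO replicate 3 (0.1296). SKIL fell by 0.11 ± 0.04 under MS023 (adjusted p 0.0295), a call lost in 14 of 20 alternatives. It was lost without any single library other than GSK591 replicate 2 or DMSO replicate 3, with adjusted p up to 0.192 (without DMSO replicate 2, log2 change -0.07), and with a replicate block (0.0558).

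Of the 5 other targets tested, 2 were called higher and 1 lower under MS023 (25.1% and 25.9% of all genes), and 2 higher and 2 lower under GSK591 (30.1% and 32.4%). ID4, the remaining ID gene, averaged 18.3 ± 3.58 CPM in MS023, 19.1 ± 0.598 CPM in GSK591 and 36.9 ± 1.38 CPM in DMSO. It fell by 1.02 ± 0.10 on the log2 scale under MS023 (adjusted p 9.5e-07 in edgeR) and by 0.95 ± 0.10 under GSK591 (adjusted p 1.1e-06). HEY1, a target shared with Notch, fell by 0.99 ± 0.11 under GSK591 (adjusted p 2.4e-06), with -0.23 ± 0.10 under MS023 (adjusted p 0.0813). MSX2, a homeobox target of BMPs, rose under MS023 (0.63 ± 0.07, adjusted p 3.8e-06) and under GSK591 (0.40 ± 0.07, adjusted p 0.000202). MSX1 rose under GSK591 (0.40 ± 0.10, adjusted p 0.00187), and ATOH8 rose under MS023 (0.42 ± 0.10, adjusted p 0.00233). Known targets thus moved in both directions in the same libraries, with ID1, ID2 and ID4 lower and MSX2 and SMAD6 higher under both inhibitors.

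Of the E proteins that ID proteins bind, 1 of 3 was called higher and 1 lower under MS023 (25.1% and 25.9% of all genes), and 2 of 3 lower under GSK591 (32.4%). TCF3 fell by 0.38 ± 0.06 under GSK591 (adjusted p 6.7e-05 in edgeR) and rose by 0.17 ± 0.06 under MS023 (adjusted p 0.0318). The rise of TCF3 was lost in 7 of 20 alternatives, among them those without MS023 replicate 2 (0.0678) or 3 (0.137) and without DMSO replicate 2 (0.1004) or 3 (0.118), and it was 0.25 without DMSO replicate 1. TCF12 fell by 0.24 ± 0.04 under GSK591 (adjusted p 2.5e-05). TCF4 fell by 0.34 ± 0.06 under MS023 (adjusted p 0.000454), which did not pass in limma on log2(FPKM + 1), at an adjusted p of 0.252.

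A search over 12754 genes took the 3 whose profile lay nearest to a member, by the root mean square (RMS) difference of log2 CPM centred on each gene's mean over the 9 libraries. For GREM1 these were DSCAML1 at an RMS difference of 0.43, CPLX1 at 0.50 and RASGRP3 at 0.51. DSCAML1 stood at 5.12 ± 0.291 CPM in MS023, 1.72 ± 0.146 CPM in GSK591 and 0.818 ± 0.106 CPM in DMSO. For CHRDL2 they were NTRK3 at 0.18, LBP at 0.19 and SERPINA3 at 0.27. NTRK3, a neurotrophin receptor, stood at 22.7 ± 2.18 CPM in MS023, 48.7 ± 3.59 CPM in GSK591 and 143.4 ± 4.86 CPM in DMSO. For ID1 they were ST3GAL5 at 0.05, LRRCC1 at 0.06 and DDIT4 at 0.07, and ST3GAL5, a sialyltransferase, stood at 68.0 ± 0.628 CPM in MS023, 67.2 ± 1.59 CPM in GSK591 and 112.6 ± 4.80 CPM in DMSO. The likeness describes these 9 libraries.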

How the data were processed

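RNA was measured in 9 libraries. The authors deposited a table of read counts per gene without normalisation, whole numbers summing to 31398075 to 51244525 per library, and FPKM tables in the layout of Cufflinks. The submitters' processing notes name cutadapt, STAR, featureCounts, DESeq2 and hg19; versions and the strand setting were not given in the sources used here. For 108 gene IDs the FPKM values were split over loci and were summed. Groups and replicate numbers came from the labels. Counts were tested in R 4.3.3 with edgeR 4.0.16 (filterByExpr, minimum count 10 and total 15; TMM scaling; quasi-likelihood test on all 9 libraries with group as the term), two-sided, with Benjamini-Hochberg adjustment over 18292 genes. Intervals are at 95%. FPKM were tested with limma 3.58.1 on log2(FPKM + 1) or log2(FPKM + 0.1), which understates changes of low genes, and DESeq2 1.42.0 was an alternative. The edgeR step was tested on simulated data. The other alternatives were RLE and total-count scaling, no filter, a filter of 1 CPM in 3 libraries, only the 6 libraries compared, a replicate block, and libraries left out.

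Deviations of same-numbered libraries correlated with r from -0.43 to 0.26 over 9 pairs, so the numbers were not taken to pair libraries. Counting error and PCR duplicates limit the precision of genes with few counts. The members and lists were chosen with earlier results of these data known. Of the other pathway genes, the text names, for each list and each comparison with DMSO, the 2 with the smallest adjusted p in each direction past 0.05, and all type I and II receptors and signal-transducing SMADs. A listed gene is not reported here and is left out of the plot of pathway genes, though the counts over the lists include it.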

Additional observations from a re-analysis of the deposited data

How the results depend on the processing

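Over 20 alternatives the 27 changes of the members gave 534 values, of which 492 stayed the same. For a tested change this means the same direction and side of the threshold. For the untested values of GREM1 and CHRDL2 in MS023 it means the same direction and a shift smaller than the spread between replicates. Of the rest, 24 lost the call, 10 untested values of GREM1 and CHRDL2 moved in FPKM by more than the spread between replicates, and 8 changed sign. The 8 were all of ID1 in MS023 over GSK591, at 0.02 without the filter, 0.02 without DMSO replicate 1 and GSK591 replicate 3 together, 0.034 in FPKM under each pseudocount and filter, and -0.055 to 0.021 with a single library left out. In FPKM, GREM1 in MS023 over DMSO had a log2 value of 2.41, and CHRDL2 -0.93 or -1.81, with a pseudocount of 1 or 0.1. The 37 other named genes gave 1761 values, of which 1602 kept direction and side, 137 lost the call, 2 gained it and 20 changed sign. The 2 gains were of ACVR2B in GSK591 against DMSO, in FPKM. Those 20 were of receptors or SMADs whose change had not passed. In GSK591 against DMSO, ACVR1 had -0.069 in FPKM + 1 with or without the filter, -0.076 in FPKM + 0.1 and -0.017 to 0.049 with a library left out, and BMPR2 had -0.019, -0.020 and -0.019 in FPKM and -0.024 to 0.060 with a library left out. In MS023 against DMSO, BMPR1A had 0.005 with total counts and 0.061 or 0.064 in FPKM, ACVR2A -0.002 or -0.003, and SMAD5 0.077 or 0.081. The causes were not tested.

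In FPKM + 1, FPKM + 0.1 and FPKM + 1 without a filter, 19, 19 and 22 other pathway genes were called in GSK591 against DMSO (34 in counts) and 15, 15 and 15 in MS023 against DMSO (28 in counts). Over all genes, MS023 against DMSO gave 5785, 5773 and 5481 calls in FPKM, against 9327 in counts, and FPKM + 1 without a filter called 4 members, against 7, losing BMP4, ID3 and SMAD6. That setting also ended the calls of GDF6 in GSK591 and of BMP5, BMPR1B and ATOH8 in MS023 against DMSO. The share of calls that were higher in GSK591 than in DMSO was 34.71% in FPKM + 1 (2793 higher, 5253 lower), against 48.15% in counts, and 55.56% with total-count scaling (6286 higher, 5027 lower). In MS023 against DMSO total-count scaling gave 56.26%, against 49.25%. In FPKM + 1 the median log2 change of all genes in GSK591 against DMSO was -0.096, against 0.006 in counts. For MS023 over GSK591 that share was 63.35% in FPKM + 1, against 51.45% in counts. BMP2 was below the FPKM filter and gave no value there. With a replicate block 11145, 8855 and 11641 genes and 7, 7 and 6 members were called in GSK591 against DMSO, MS023 against DMSO and MS023 over GSK591, and it changed no call of a member but ended those of ACVR1 and SKIL in MS023 against DMSO.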
